A study of Mus musculus with 22 samples.

Results

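The genes described here are 9 further modifiers of epigenetic variegation, the patchy silencing of a reporter in some cells and not in others: Smchd1, Trim28, Setdb1, Hdac1, Baz1b, Smarca5, Smarca4, Wiz and Rif1. They were chosen by name, as genes recovered in the same kind of mutagenesis screen as Rlf, out of 37991 genes in the RNA-seq tables, and each was found in every table. All mice were of strain FVB (FVB/NJ in the study's methods) and of the Line3 background, which is homozygous for a multi-copy GFP transgene driven by a human alpha-globin promoter and enhancer, so wild-type controls carried that transgene too. The mutants were homozygous for MommeD28 (MommeD28/MommeD28), a chemically induced null allele of Rlf whose homozygotes die around birth, and they are called Rlf mutant below. Whole-genome bisulphite sequencing covered 12 libraries, 2 wild-type and 2 Rlf mutant samples each of whole E10.5 embryos (all male), E14.5 livers (replicate 1 male and replicate 2 female in both genotypes) and E18.5 livers (all female), so that tissue, stage and, in part, sex cannot be told apart. RNA-seq covered 6 E14.5 livers, 3 of each genotype, with replicates 1 and 2 male and replicate 3 female in both. Whole embryos and whole livers are mixtures of cells, and a change in the share of a cell type cannot be told apart from a change within cells.

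The screen that found these genes scores the share of red cells that express the transgene. Trim28 encodes a corepressor that zinc finger proteins bring to DNA, and Setdb1 the histone methyltransferase that it recruits to methylate lysine 9 of histone H3. Wiz encodes a zinc finger partner of the G9a and GLP methyltransferases, which act on the same lysine. Smchd1 is needed for silencing on the inactive X chromosome and at imprinted clusters, and Rif1 controls the timing of DNA replication and the response to broken DNA. Hdac1 encodes a histone deacetylase, and Smarca5, Baz1b and Smarca4 belong to machines that move nucleosomes, the first pair to the ISWI family and the last as a catalytic subunit of the BAF complexes. In mammals the CpG island at a promoter like theirs is usually free of DNA methylation, while the CpG-poorer shores beside it carry intermediate methylation that differs between tissues.

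The 9 genes lie on chromosomes 17 (Smchd1 and Wiz), 7 (Trim28), 3 (Setdb1), 4 (Hdac1), 5 (Baz1b), 8 (Smarca5), 9 (Smarca4) and 2 (Rif1). Each of the 9 had a CpG island at its transcription start site (TSS), against 54.2% of 21410 autosomal protein-coding genes, and the islands ran from 503 bp at Setdb1 to 1550 bp at Smarca5. The window from 1 kb before to 1 kb after the TSS held 78 CpGs at Setdb1, 87 at Hdac1 and 91 at Wiz, and 121 to 185 at the other 6, where the median over all genes was 61. The upstream and downstream shores were the 2000 bp beyond either edge of the island.

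The 4 short stretches printed here come from the downstream shores called by genotype and from the upstream shores of Rif1 and Smarca4. Those upstream shores had the largest rise and the largest fall between embryo and E14.5 liver. The other shores were not searched for such stretches. They were chosen for their values, as the stretch of at most 280 bp with the largest summed difference in that shore. Each is printed 5′ to 3′ on the strand of the gene, from mm9, with the CpGs that had at least 6 reads in all 12 libraries in capitals. The first is the stretch of Setdb1 with more methylation listed in the Rlf mutant (chr3:95160136-95160392, minus strand, inside the first intron, 8 CpGs). It has a near-identical inverted copy on the same chromosome, described with its values. The second is the stretch of Rif1 that gained methylation (chr2:51929726-51929846, plus strand, a coding exon and the intron before it, 5 CpGs). The third is the part of the Rif1 upstream shore that was far more methylated in liver than in the embryo (chr2:51927081-51927333, plus strand, no gene, 6 CpGs). The fourth is the part of the Smarca4 upstream shore that was less methylated in liver (chr9:21419509-21419743, plus strand, no gene, 11 CpGs).
Setdb1 first intron: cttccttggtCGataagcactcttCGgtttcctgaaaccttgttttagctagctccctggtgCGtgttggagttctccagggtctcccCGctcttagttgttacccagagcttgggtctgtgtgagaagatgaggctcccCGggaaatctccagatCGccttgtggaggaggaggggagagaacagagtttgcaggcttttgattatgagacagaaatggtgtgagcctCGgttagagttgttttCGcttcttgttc
Rif1 exon and flank: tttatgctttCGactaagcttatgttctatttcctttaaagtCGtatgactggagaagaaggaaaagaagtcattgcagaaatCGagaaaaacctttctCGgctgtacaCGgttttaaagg
Rif1 upstream shore: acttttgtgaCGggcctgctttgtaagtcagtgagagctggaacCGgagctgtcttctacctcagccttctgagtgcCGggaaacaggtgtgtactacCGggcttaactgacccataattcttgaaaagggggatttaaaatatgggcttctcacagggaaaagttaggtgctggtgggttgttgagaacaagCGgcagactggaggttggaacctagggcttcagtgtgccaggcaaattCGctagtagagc
Smarca4 upstream shore: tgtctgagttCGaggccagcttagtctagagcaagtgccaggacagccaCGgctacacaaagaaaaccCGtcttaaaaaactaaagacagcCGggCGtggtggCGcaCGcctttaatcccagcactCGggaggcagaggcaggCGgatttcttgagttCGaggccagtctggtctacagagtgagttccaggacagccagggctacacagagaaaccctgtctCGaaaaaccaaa

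The Rlf mutant liver showed no detectable change in the RNA of any of the 9 genes. The fitted log2 fold changes, mutant over wild type, ran from -0.09 for Hdac1 to 0.04 for Wiz, the lowest adjusted p was 0.692 for Smchd1, and none of the 9 passed an unadjusted p of 0.05 (quasi-likelihood test of edgeR, adjusted by Benjamini-Hochberg). Over all genes 1.39% were called, 197 of 14183, with 99 higher and 98 lower. The groups of 3 livers overlapped for all 9 genes, while they did not overlap for 20.3% of all genes tested. The median log2 fold change was -0.0024 over the 9 genes and -0.0017 over all genes tested. The standard errors were 0.06 to 0.08, and 0.11 for Hdac1. Rlf RNA itself was 70.0, 72.3 and 68.9 CPM (counts scaled to library size) in wild-type livers and 76.3, 79.8 and 67.6 CPM in Rlf mutant livers (log2 fold change 0.08 ± 0.07 (SE), adjusted p = 0.646 by edgeR), so the RNA level does not check the genotype labels.

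The levels are given as RPKM, counts scaled to exon length and library size, which lets genes be compared. Trim28, the corepressor, was the most abundant of the 9, at 94.9, 110 and 98.7 RPKM in wild-type and 104, 99.2 and 99.6 RPKM in Rlf mutant livers. Baz1b, a nucleosome-remodelling subunit with a kinase activity towards a histone variant, followed at 44.9, 41.6 and 43.4 RPKM against 47.1, 38.6 and 43.9 RPKM. The mutant values of both genes lay within or around those of the wild type. Smarca4, the BAF ATPase, stood at 31.4, 34.2 and 32.4 RPKM against 35.6, 30.3 and 32.1 RPKM. Smchd1 stood at 22.1, 21.6 and 21.9 RPKM against 21.9, 19.7 and 21.1 RPKM, with 1 Rlf mutant liver below the rest. Smarca5, Rif1 and Setdb1 formed a group whose order cannot be told from these livers, with means over the 6 livers of 13.8 ± 0.74, 13.4 ± 0.86 and 13.3 ± 1.02 RPKM (SD, n = 6). Setdb1, the histone H3 methyltransferase, gave 12.03, 15.05 and 13.3 RPKM in wild-type livers and 13.7, 12.7 and 13.0 RPKM in Rlf mutant livers. Rif1 gave 13.6, 12.3 and 13.97 RPKM against 14.2, 12.3 and 13.8 RPKM. Wiz was low, at 5.82, 6.47 and 6.03 RPKM against 5.71, 6.57 and 6.55 RPKM. Hdac1 was the lowest, at 4.30, 4.41 and 4.15 RPKM against 4.60, 3.81 and 3.69 RPKM. Apart from Smarca5, Rif1 and Setdb1, the neighbours in this order did not overlap in any liver.

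**Figure D1:**
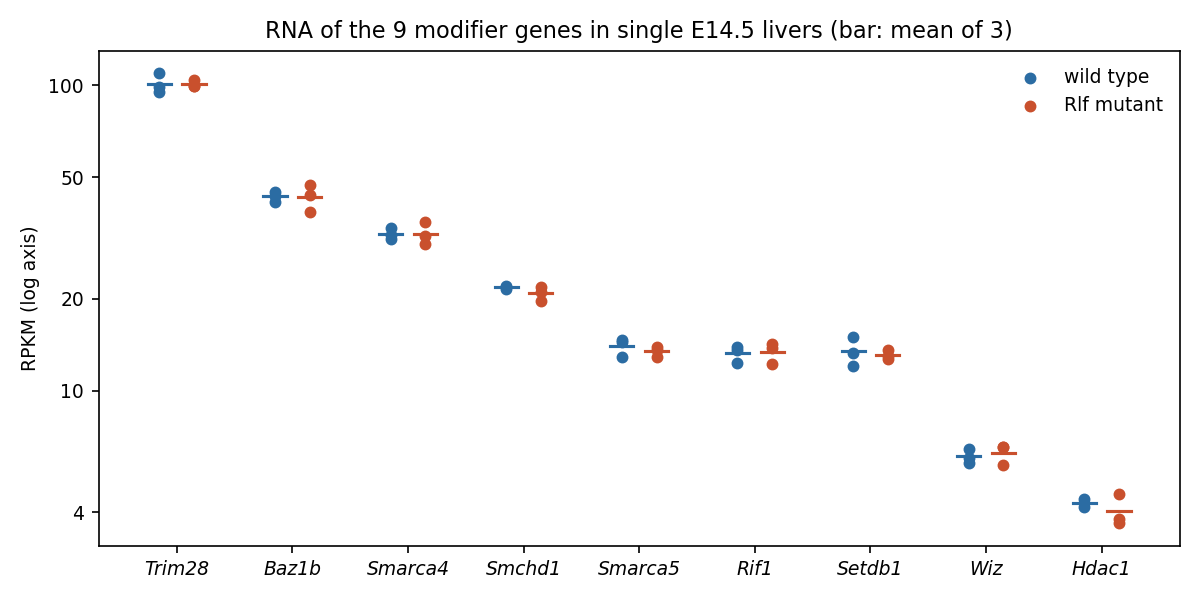
RPKM of the 9 genes in each of the 6 E14.5 livers on a log axis, wild type in blue and Rlf mutant in orange, with a bar at the mean of 3. The 2 groups overlap at every gene, and the levels run from Trim28 (mean 101 RPKM) down to Hdac1 (mean 4.16 RPKM), which shares sequence with a copy.

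The level of Hdac1 is uncertain because of a copy. Of the 50 bp windows in its exons, the length of the reads, only 62.7% occur once in mm9, and 32.1% are also in Gm10093, an Hdac1-like copy on chromosome 17 that the annotation calls protein-coding. Gm10093 had 782 to 966 counts per liver, against 181 to 230 for Hdac1, and a mean of 63.8 CPM, with a log2 fold change of -0.08 (adjusted p = 0.599 by edgeR). Smarca5 is also shared in part, with 76.3% of its windows unique and 11.8% also in the copy Smarca5-ps, which had 89 to 127 counts. The other 7 genes had 88.6% (Setdb1) to 100% unique windows. The order of levels depends on this. Divided by the share of windows that occur once, the mean RPKM was 6.64 for Hdac1 and 6.42 for Wiz, and 18.02 for Smarca5, 15.01 for Setdb1 and 13.4 for Rif1, while the other 4 kept their places above them. How many reads of Hdac1 were given to the copy was not tested.

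For each of the 9 genes the gene with the most similar pattern over the 6 livers was sought among 9723 other genes of at least 10 CPM. The Pearson correlations below are over 6 livers that share their depth differences, and are a description. Each is the highest of 9723, and a search of that size over 6 livers can give high values for unrelated genes. A link in function between the paired genes was not tested. Baz1b was nearest to Top2a, the replication-linked topoisomerase (r = 0.998), Smchd1 to Mcm4, a subunit of the replicative helicase (r = 0.993), and Smarca4 to Setd1b, a histone H3 lysine 4 methyltransferase (r = 0.996). Trim28 was nearest to Arhgef1 (r = 0.997), Setdb1 to Tmco7 (r = 0.986), Hdac1 to Fcho1 (r = 0.989), Smarca5 to Gm6768 (r = 0.990), Wiz to Dusp7 (r = 0.988) and Rif1 to Ythdc2 (r = 0.978).

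The genes listed for partners of these proteins, with some related proteins among them, are called partners below. Of these, 1 of 69 over 6 lists was called (1.45%), close to the 1.39% of all genes. Lrif1, whose protein binds SMCHD1 and brings it to chromatin marked by HP1, was higher in the Rlf mutant, at 18.47, 17.8 and 16.8 CPM against 12.7, 11.8 and 12.8 CPM (log2 fold change 0.51 ± 0.10 (SE), adjusted p = 0.0319 by edgeR). The 3 mutant livers all lay above the 3 wild-type livers, but the call was lost when any of the 6 livers was left out, with adjusted p from 0.0633 to 0.124. None of the other 8 partners of SMCHD1 and RIF1 was called. The counts of genes called were 0 of 11 partners of TRIM28 and SETDB1 in silencing (median log2 fold change 0.01) and 0 of 17 partners of HDAC1 (-0.03). They were 0 of 9 ISWI partners of SMARCA5 and BAZ1B (0.14) and 0 of 16 BAF partners of SMARCA4 (-0.04). In the list for WIZ and lysine 9 methylation, which is not limited to partners of WIZ, 0 of 7 were called (0.02). Also 0 of 5 further genes of the screens (0.06) and 0 of 12 replication and cell cycle genes (-0.11) were called. At an unadjusted p under 0.05 there were 11 of the 69 partners (15.9%), near the 2071 of all 14183 genes (14.6%) that passed that level. They were 4 of the TRIM28 and SETDB1 partners, 3 of the ISWI partners and 2 of the SMCHD1 and RIF1 partners. The rest were 1 of the BAF partners, 1 of the WIZ and lysine 9 list and 0 of the HDAC1 partners. Of the replication and cell cycle genes 2 of 12 passed it, and of the further screen genes 0 of 5. DESeq2 called 0 of the 9 modifiers and 1 gene of the partner lists as well.

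Of 47 markers of liver cell types tested in 7 lists, 4 were called by genotype (8.51%), beside 1.39% of all genes, and 17 passed an unadjusted p of 0.05 (36.2%), beside 14.6% of all genes. The single genes called were Pf4 (log2 fold change 0.40), 1 of 5 megakaryocyte markers, Cd5l (-1.19), 1 of 6 macrophage markers, and Ngp (-0.93) and Elane (-0.76), 2 of 5 neutrophil markers. None of the 10 hepatoblast, 9 erythroid, 6 endothelial or 6 mesenchymal markers tested was called. The summed level of the 10 hepatoblast markers was 58367 to 69253 CPM in wild-type and 71489 to 83004 CPM in Rlf mutant livers. Most of that sum was albumin and alpha-fetoprotein RNA (Alb and Afp), and the other 8 summed to 7903 to 9425 against 8894 to 10197 CPM, which overlap. The 5 megakaryocyte markers summed to 474 to 495 against 557 to 627 CPM and the 6 endothelial markers to 268 to 295 against 297 to 347 CPM, without overlap. Among single genes 20.3% of all tested did not overlap between the genotypes, and no such share was counted for sums of genes. The 6 macrophage markers summed to 349 to 402 against 287 to 319 CPM, and without Cd5l the other 5 overlapped, at 247 to 273 against 249.8 to 267 CPM. Erythroid markers overlapped at 28724 to 53375 against 35926 to 38942 CPM, as did the neutrophil markers at 462 to 644 against 437 to 522 CPM and the mesenchymal markers at 726 to 960 against 787 to 1199 CPM. The part of these cells in the result for Lrif1 was not tested.

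In DNA methylation, the islands of all 9 genes were close to unmethylated in every library. Over the CpGs inside the island the highest value in any of the 12 libraries was 1.28%, at Wiz, and the medians ran from 0.0320% at Trim28 to 0.705% at Smarca5. Of the windows at the TSS, 1 of 9 was called higher in the Rlf mutant over the 3 tissues, that of Setdb1, beside 8.09% of all 19231 windows tested. None of the 9 was called lower. The Setdb1 window differed by 3.11 ± 1.08 points (SE), from group means of 6.94% in wild-type embryos, 4.76% in wild-type E14.5 livers and 5.60% in wild-type livers at E18.5 to 9.34%, 7.60% and 9.68% (adjusted p = 0.0029, edgeR). The call was lost without E10.5 Rlf mutant replicate 2 (2.07 points, adjusted p = 0.0507), the difference was 1.98 points as a mean of CpG percents, and the call was lost also without the CpGs of a duplicated block described with the downstream shore (0.44 points, adjusted p = 0.546, edgeR). The other 8 windows differed by -0.04 to 1.11 points, and their levels ran from at most 0.12% at Trim28 to between 10.3% and 20.3% at Wiz. The median difference was 0.136 points over the 9 genes and 0.386 points over all windows. The Wiz window spans several of the 7 annotated starts of its coding transcripts and is the least depleted of methylation. Of its 91 CpGs 42 were measured, and 11 of these are also in the downstream shore. The 23 CpGs measured in its island, of 67, stayed at or below 1.28%.

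The downstream shores, on the gene side of the islands, held 2 calls. The printed stretch of the Rif1 shore lies in sequence found once in mm9, and most of that of the Setdb1 shore does not. The rest of the Rif1 shore was not checked for this. Of the 9, 2 were called higher in the Rlf mutant over the 3 tissues, Setdb1 and Rif1, beside 9.90% of 11363 downstream shores, and none was called lower. The median difference was 2.58 points over the 9 genes and 1.46 points over all downstream shores, so the shores as a class were higher in the Rlf mutant. The differences of Setdb1 and Rif1 exceeded those of 95.3% and 95.4% of all downstream shores.

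The Rif1 downstream shore was 75.9% and 77.5% methylated in wild-type embryos and 86.2% and 81.1% in Rlf mutant embryos, 75.9% and 71.5% against 78.3% and 80.3% in E14.5 liver, and 73.2% and 78.0% against 89.0% and 80.0% in E18.5 liver. Both mutant libraries lay above both wild-type libraries in all 3 tissues, as they did at 8.60% of all downstream shores. The mean difference was 7.15 ± 2.07 points (SE; adjusted p = 0.0143 by edgeR; exact within-tissue permutation p = 0.00926, two-sided, the smallest this design allows). It lay in the 5 CpGs of the printed stretch, 1379 to 1478 bp after the TSS, which rose from 73.8% to 86.0%, 50.1% to 67.5%, 62.9% to 75.5%, 76.0% to 90.1% and 56.5% to 65.0%. All 50 bp windows of that stretch occur once in mm9. The call was lost without E18.5 Rlf mutant replicate 1 (5.65 points, adjusted p = 0.0966), E18.5 wild-type replicate 1 (6.36 points, adjusted p = 0.0582) or E10.5 Rlf mutant replicate 1 (6.31 points, adjusted p = 0.0558; edgeR throughout). E18.5 Rlf mutant replicate 1 stands apart in its methylation over the genome.

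The Setdb1 downstream shore was 13.99% and 15.3% methylated in the wild-type embryos and 14.7% and 26.7% in the Rlf mutant embryos. In E14.5 liver it was 7.47% and 8.43% against 14.49% and 13.6%, and in E18.5 liver 9.73% and 12.4% against 18.9% and 21.6%. The genotypes did not overlap in either liver stage and overlapped in the embryo, where 1 mutant embryo stood far above the other 3. The mean difference was 7.11 ± 2.13 points (SE; adjusted p = 0.00039 by edgeR; exact within-tissue permutation p = 0.0185, two-sided, where the smallest p is 0.00926). The 8 CpGs printed above, 743 to 978 bp after the TSS, were each higher in the mean of the 6 Rlf mutant libraries, by 4.72 to 18.7 points. From 5′ to 3′ on the printed strand they went from 6.75% to 19.1%, 18.51% to 23.2%, 11.6% to 22.3%, 21.2% to 34.1%, 16.5% to 28.0%, 16.2% to 23.5%, 12.2% to 26.0% and 25.4% to 44.1%. Pooled over the 8 CpGs the wild-type libraries held 10.47% to 19.7% and the Rlf mutant libraries 18.9% to 40.9%. The island beside them, with 32 CpGs measured, stayed at or below 0.965% in every library. The same CpGs make the TSS call, since 14 of the 15 CpGs of the shore are also in the TSS window, and in a window of 500 bp to either side of the TSS the difference was 0.162 points (adjusted p = 0.380 by edgeR).

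These Setdb1 values cannot be assigned to Setdb1 alone. The 8 CpGs lie in a block of 1190 bp (chr3:95159439-95160628) that is 99.5% identical, with 6 differences, to an inverted copy 71344 bp away on the same chromosome (chr3:95231972-95233161), at the gene Gm4349, which the annotation calls a lincRNA. Of the 50 bp windows of the printed stretch 24.04% occur once in mm9, and it differs from the copy at 1 base. The 8 CpGs had 18.9 to 64.5 reads per CpG in each library at Setdb1, while the paired CpGs of the copy had 0 to 1.25. Reads therefore were listed almost only at Setdb1, with the most, a mean of 58.1 per library, at the CpG 6 bp from the base that differs. A further 13 CpGs of the block had reads at both places in every library. Over them, methylation was 7.75% to 23.2% at Setdb1 and 25.1% to 47.2% at the copy in wild-type libraries. In Rlf mutant libraries it was 12.5% to 21.9% at Setdb1 and 35.4% to 53.7% at the copy. At either place both mutant libraries lay above both wild-type libraries in 1 tissue of 3. Without the block, an alternative chosen after seeing the data, 5 CpGs of the shore remained, the difference was 0.19 points (adjusted p = 1, edgeR) and 1 downstream shore of the 9, in place of 2, was called. Which copy the reads of the 8 CpGs came from was not tested.

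**Figure D2:**
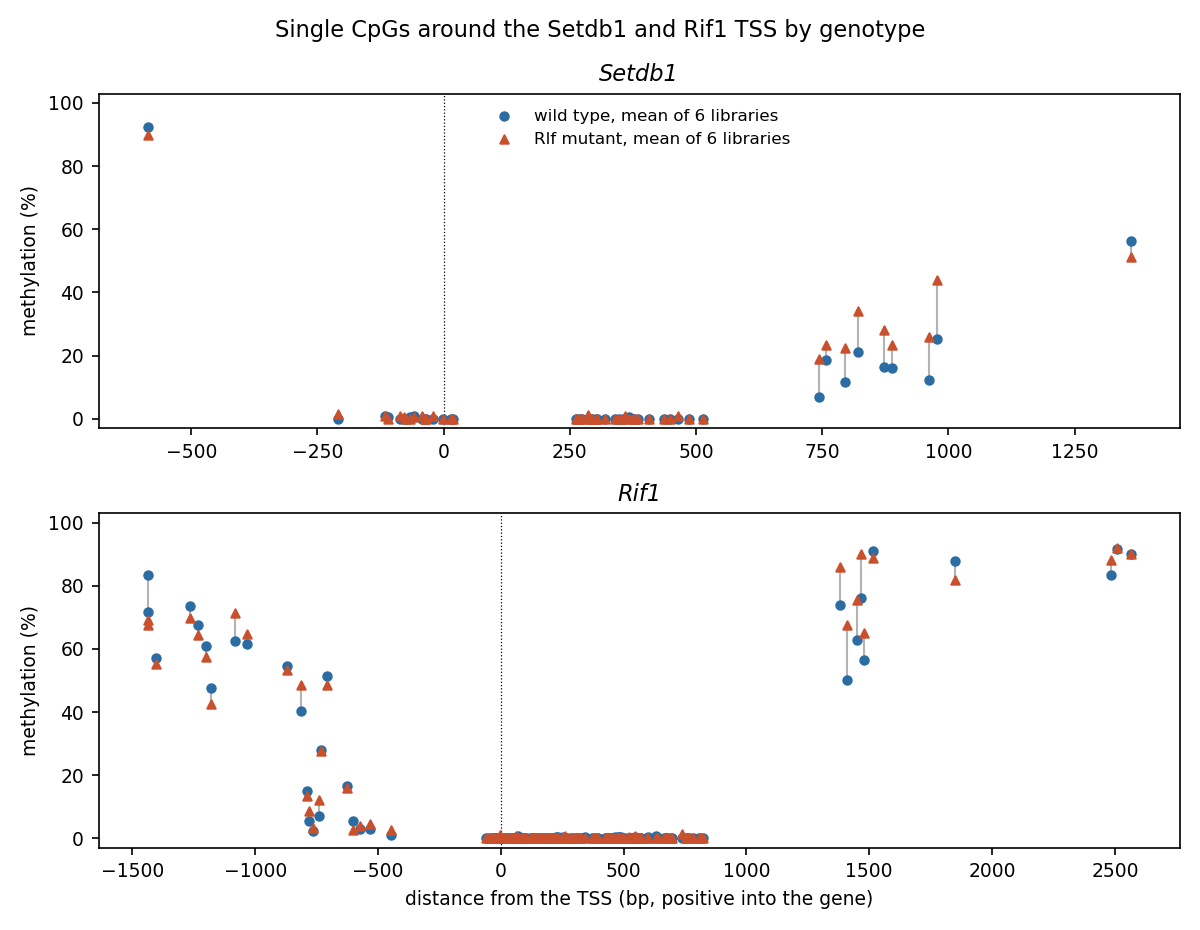
Methylation of single CpGs (percent of reads) against distance from the TSS of Setdb1 (top) and Rif1 (bottom), as the mean of 6 wild-type (blue circles) and 6 Rlf mutant (orange triangles) libraries, joined by a grey line. CpGs of the islands lie on the zero line in both genotypes, and the mutant symbols lie above the wild-type ones at the 8 CpGs from 743 to 978 bp of Setdb1, which have a near-identical copy elsewhere, and the 5 CpGs from 1379 to 1478 bp of Rif1.

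The other 7 downstream shores were not called. Baz1b showed a difference of 4.38 ± 1.19 points (SE; adjusted p = 0.194 by edgeR). Wild-type values of 19.6% and 20.7% stood against 26.4% and 32.5% in the embryo, 12.5% and 12.8% against 12.5% and 13.4% in E14.5 liver, and 10.06% and 13.4% against 15.5% and 15% in E18.5 liver, so that the genotypes did not overlap in the embryo and E18.5 liver. The mutant libraries of Hdac1 and Wiz also lay above the wild-type ones in those tissues. The share of all downstream shores that separate in this way was not counted. As a mean of CpG percents, in place of pooled reads, the Baz1b difference was 0.207 points. Smchd1 differed by 2.58 points over the 3 tissues (adjusted p = 0.120 by edgeR). It was 10.3% and 8.38% against 15.9% and 15.8% in E14.5 liver (6.56 points, adjusted p = 0.0621 for that tissue by edgeR). In the embryo and in E18.5 liver its genotypes overlapped, with differences of -0.18 and 1.37 points. Hdac1, Wiz, Smarca4, Smarca5 and Trim28 differed by 3.22, 1.36, 0.95, 0.10 and -0.96 points over the 3 tissues. The Hdac1 value was 0.868 points without E18.5 Rlf mutant replicate 1, the library that stands apart, and 5.58 points without E18.5 Rlf mutant replicate 2. As a mean of CpG percents it was 0.315 points.

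**Figure D3:**
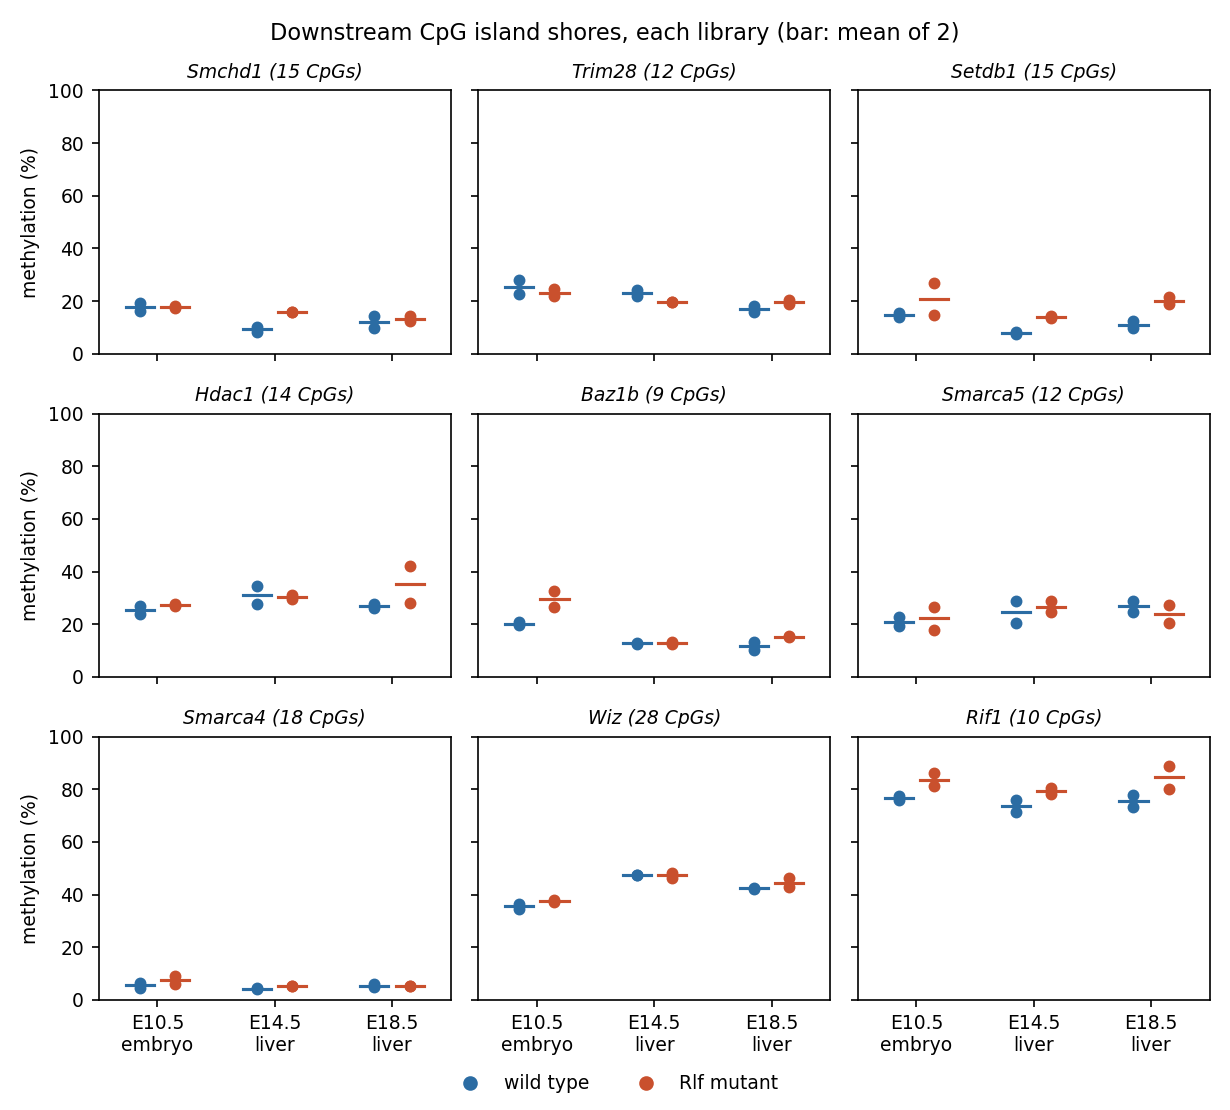
Methylation of the downstream shore (percent of reads) of each of the 9 genes in each of the 12 libraries, by tissue, wild type in blue and Rlf mutant in orange, with a bar at the mean of 2. Setdb1 and Rif1, the shores called, have the mutant bars above the wild-type bars in all 3 tissues, as does Baz1b, which was not called. Wiz has higher values in liver than in the embryo in both genotypes.

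None of the 9 upstream shores was called by genotype, beside 5.92% of 11276 upstream shores called higher, and their median difference was 1.09 points against 1.28 points over all. Single differences ran from -0.51 points at Trim28 to 3.88 points at Smchd1. That of Smchd1 was 1.89 points without E10.5 Rlf mutant replicate 1 and 5.86 points without replicate 2, so their order is not read. None of the 9 gene bodies, from 3 kb after the TSS to the gene end, was called either, beside 12.6% of 16347 bodies called higher. The body differences ran from -0.03 to 1.39 points with a median of 0.605 points, against 1.45 points over all bodies.

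Taken tissue by tissue, no window, shore or body of the 9 genes was called by genotype. Calls in at least 1 single tissue were made at 3.24% of TSS windows, 1.25% of upstream shores, 4.19% of downstream shores and 2.15% of gene bodies. The interaction of genotype with tissue was called for none of the 9 genes, and for 0% of TSS windows, 0.0266% of upstream shores, 0.00880% of downstream shores and 0.0367% of gene bodies, so no difference between tissues in the effect of genotype was detected at these genes. With 2 libraries against 2, the Setdb1 downstream shore differed by 6.05 points in the embryo, 6.08 points in E14.5 liver and 9.20 points in E18.5 liver (adjusted p = 0.243, 0.0922 and 0.103 by edgeR).

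In tiles of 1 kb from 10 kb before to 10 kb after the 9 genes, 213 tiles were tested. Over the 3 tissues none passed the call, which asks for an adjusted p under 0.05 and a difference over 10 points, as 0.791% of 574594 tiles did. At an adjusted p under 0.05 alone 9 tiles passed, all higher in the Rlf mutant, beside 4.31% of all tiles (24154 higher and 609 lower), and the median difference was 0.474 points over the 213 tiles against 1.69 points over all. One tile, 8.12 kb before the Wiz TSS and inside the neighbouring gene Rasal3, lay just below the minimum, at 9.999 points (adjusted p = 0.00022 by edgeR). It rose from 58.1% to 72.5% in the embryo, 67.6% to 75.2% in E14.5 liver and 68.5% to 76.5% in E18.5 liver. Over all tiles, 80.7% were higher in the Rlf mutant. Further tiles of Rasal3, 5.12 and 3.12 kb before the Wiz TSS, and a tile 12.9 kb after it, in Wiz and the overlapping gene Gm17561, rose by 4.91, 5.68 and 6.32 points. At Smarca4 the tile 1.11 kb before the TSS, which holds the printed upstream stretch, rose by 6.07 points (adjusted p = 0.0278 by edgeR), from 59.5% to 66.7% in E14.5 liver and from 67.7% to 75.8% in E18.5 liver, beside 90.3% and 93.3% in the embryo. Past the end of Baz1b, 3 tiles in or near Fzd9 rose by 1.10 to 6.76 points over the 3 tissues. In the embryo alone 2 of the 213 tiles passed both limits, beside 0.710% of all tiles. They were the first Rasal3 tile, with 14.4 points (adjusted p = 0.023), and the tile of Fzd9 62.4 kb after the Baz1b TSS, which rose from 74.9% to 85.2% (10.3 points, adjusted p = 0.0094), beside 1.78 points in E14.5 liver and 4.12 points in E18.5 liver (adjusted p = 0.935 and 0.552; edgeR throughout). Without 1 of the 4 embryo libraries 0 or 1 of the 213 passed. Another 2 tiles passed the adjusted p alone in the embryo, in Fzd9 (1.58 points) and in Rasal3 (8.05 points), which makes 4 of 213 beside 0.893% of all tiles. In either liver stage 0 of 213 passed it, beside 0.335% of all tiles in E14.5 liver and 0.405% in E18.5 liver. The interaction of genotype with tissue was called at none of these 4 tiles (adjusted p = 1). The Setdb1 tile that passed, with 4.32 points, overlaps the duplicated block.

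The larger differences at these genes were between tissues, in both genotypes. From E10.5 embryo to E14.5 liver all 9 upstream shores were called on pooled reads. Smchd1, Setdb1, Hdac1, Baz1b, Smarca5 and Smarca4 were lower in liver, 6 of 9 beside 58.7% of all upstream shores, and Trim28, Wiz and Rif1 were higher, 3 of 9 beside 10.2%. The direction of Trim28 turned when CpG percents were averaged in place of pooling reads, an alternative chosen after seeing the data. The median over all upstream shores was -6.70 points, so falls were the rule among shores.

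Rif1 made the largest rise, by 16.8 points (adjusted p = 2.13e-07 by edgeR), from 37.7% to 38.9% in the 4 embryos to 50.1% to 57.2% in the E14.5 livers and 51.4% to 57.6% in the E18.5 livers. Of its 28 CpGs, 21 were higher in E14.5 liver. In the printed upstream stretch the mean over 4 libraries was 33.7% ± 3.91 (SD, n = 4) in embryos, 74.2% ± 1.47 in E14.5 liver and 74.9% ± 4.63 in E18.5 liver, and 1 CpG in it went from 9.96% to 58.6% and 66.9%. The genotypes differed there by only -0.688 points. Smarca4 made the largest fall, by 18.1 points, from 59.2% to 60.7% in embryos to 38.4% to 45.2% in E14.5 liver. Its printed stretch was at 92.5% ± 4.19 in embryos, 62.4% ± 5.18 in E14.5 liver and 71.5% ± 4.14 in E18.5 liver (SD, n = 4). These SDs mix the genotypes, which did not overlap in liver. Wild type held 58.2% and 57.7% against 67.4% and 66.3% in the Rlf mutant at E14.5. At E18.5 the values were 67.5% and 68.6% against 76.3% and 73.6%. The mean genotype difference of that stretch over the 3 tissues was 6.40 points. Over the whole Smarca4 upstream shore it was 2.66 points and not called (adjusted p = 0.458 by edgeR). There the genotypes overlapped in the embryo and in E18.5 liver, but not in E14.5 liver. The printed stretch, chosen for its tissue difference, was not tested by genotype. The letters of that stretch are those of a short interspersed repeat of the B1 family, and 58.6% of its 50 bp windows occur once in mm9, against 100% in both Rif1 stretches. Hdac1 fell by 15.4 points, Smchd1 fell by 14.53 points, Baz1b fell by 10.9 points, Setdb1 fell by 8.86 points and Smarca5 fell by 8.41 points. As a mean of CpG percents Smchd1 fell by 6.22 points and Baz1b fell by 6.57 points, and the other differences of these shores but Trim28 moved by less than 1.5 times. Wiz rose by 6.57 points on pooled reads. The Trim28 shore was called higher by 4.03 points on pooled reads, from 1.48% to 3.49% in embryos to 5.51% to 7.62% in E14.5 liver, but its methylated CpGs did not rise together. Of its 32 CpGs only 3, at -1498, -1488 and -1413 bp from the TSS, were highly methylated, at 87.5%, 80.4% and 91.7% in embryos and 84.3%, 81.1% and 84.9% in E14.5 liver, and the mean of the CpG percents was 8.26% in embryos and 7.99% in E14.5 liver. The Trim28 call was lost with at least 10 reads per CpG, where 21 of 32 CpGs remained (0.04 points, adjusted p = 0.370 by edgeR), Wiz stood at an adjusted p of 0.04997 and Hdac1 kept too few CpGs to be tested. Leaving out each library in turn gave 7 to 9 upstream shores called between these tissues.

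**Figure D4:**
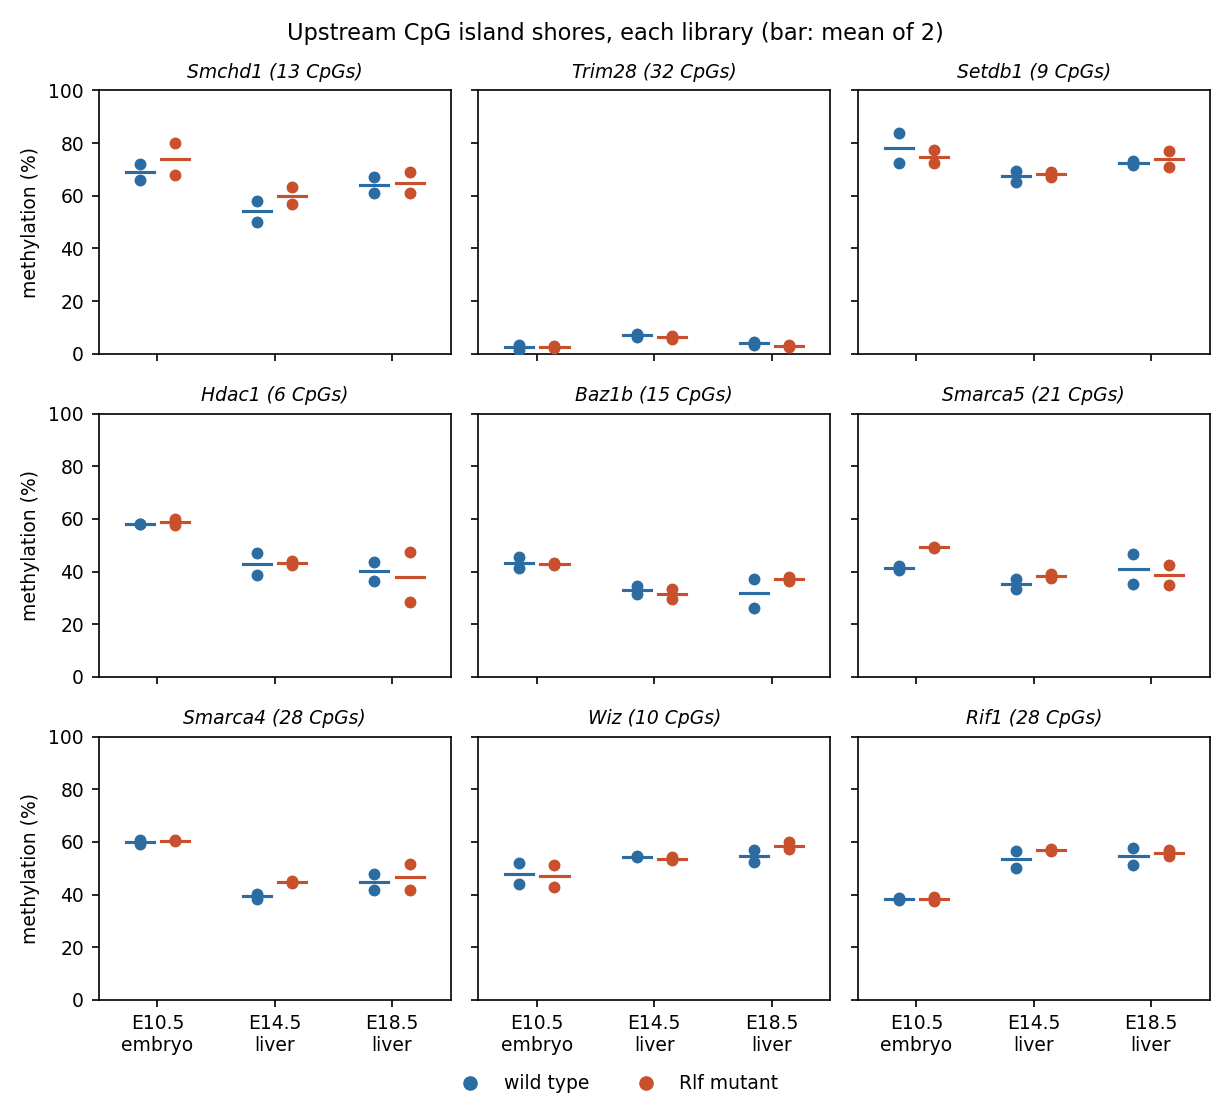
Methylation of the upstream shore (percent of reads) of each of the 9 genes in each of the 12 libraries, by tissue, wild type in blue and Rlf mutant in orange, with a bar at the mean of 2. Rif1 is higher in both liver stages than in the embryo, Smarca4 is lower in them, and Trim28 stays at or below 7.62% in every library.

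**Figure D5:**
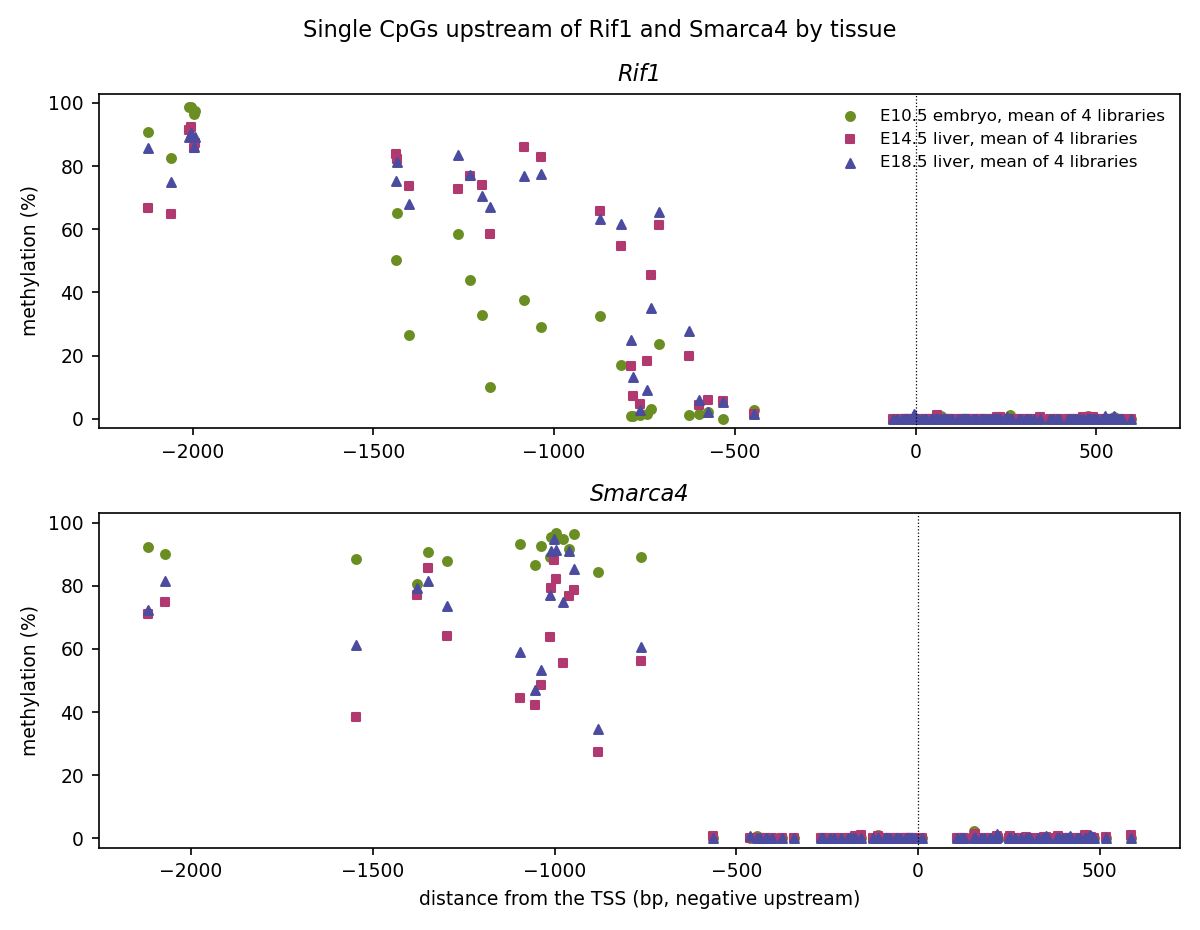
Methylation of single CpGs (percent of reads) against distance from the TSS of Rif1 (top) and Smarca4 (bottom), as the mean of the 4 libraries of E10.5 embryo (circles), E14.5 liver (squares) and E18.5 liver (triangles). CpGs about 1 kb upstream of Rif1 are higher in both livers, those at about the same distance from Smarca4 are lower, and the CpGs next to either TSS are near 0 in all 3.

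Near the TSS the same tissues differed less, in windows that partly overlap the shores. Of the 42 CpGs measured in the Wiz window 11 are also in its downstream shore, and the Rif1 window overlaps its upstream shore. In the TSS windows Wiz and Rif1 were higher in E14.5 liver than in the embryo, by 4.24 and 2.21 points, 2 of 9 beside 21.0% of all windows. Smchd1, Setdb1, Hdac1, Baz1b, Smarca5 and Smarca4 were lower, 6 of 9 beside 46.5%, by 0.226 to 1.96 points, and Trim28 was not called. The Smchd1 and Baz1b values were small, with group means of 0.335% to 0.490% in embryos and 0.149% to 0.208% in E14.5 liver. In the unmethylated lambda DNA added to the libraries, 0.0544% to 0.0775% was unconverted in embryos and 0.0412% to 0.0590% in E14.5 liver. With 500 bp to either side of the TSS only 2 of the 9 were called between these tissues. Of the downstream shores Wiz was higher in E14.5 liver, by 10.7 points (1 of 9 beside 13.2%), and Baz1b, Setdb1 and Smchd1 were lower. Baz1b fell by 12.01 points, Setdb1 fell by 6.69 points and Smchd1 fell by 5.18 points (3 of 9 beside 58.2%). As a mean of CpG percents Wiz differed by 3.82 points and Baz1b, Setdb1 and Smchd1 by -4.49, -6.40 and -8.52 points in the downstream shore, and the TSS window of Wiz by 2.07 points. Without the duplicated Setdb1 block the calls between these tissues numbered 7 TSS windows and 3 downstream shores. All 9 gene bodies were lower in E14.5 liver, beside 95.0% of all bodies, by 4.65 points at Trim28 to 10.52 points at Rif1, where the median over all bodies was -13.6 points. The Wiz body differed by -4.74 points on pooled reads and -7.31 points as a mean of CpG percents. The bodies were at 81.2% to 94.2% in all libraries, but for Wiz at 52.0% to 61.6%, whose body holds tiles of low methylation centred 24883 and 25883 bp after the TSS.

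From E14.5 to E18.5 liver 6 regions of these genes were called, against 30 from embryo to E14.5 liver. No TSS window was called, beside 16% of all higher and 9.45% lower, and no downstream shore, beside 10.3% and 3.41%. The upstream shores had a median of 2.53 points against 1.74 points over all. Smchd1 rose there by 7.43 points without a call (adjusted p = 0.0979 by edgeR), and by 1.90 points as a mean of CpG percents. The Trim28 upstream shore was called lower on pooled reads (-3.07 points, adjusted p = 0.0031 by edgeR), 1 of 9 beside 2.01% of all upstream shores, but as a mean of CpG percents it was 7.99% in E14.5 and 8.41% in E18.5 liver, a difference of 0.42 points in the other direction. With at least 10 reads per CpG in every library 21 of its 32 CpGs remained and the difference was -0.04 points (adjusted p = 0.522 by edgeR). The bodies of Smchd1, Baz1b, Smarca5, Smarca4 and Rif1 rose by 1.92 to 3.20 points, 5 of 9 beside 78.2% of all bodies.

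The RNA libraries held 12928313 to 14621004 counts each. The bisulphite libraries gave 17.2 to 19.4 reads per covered autosomal CpG for embryos, 32.2 to 36.1 for livers of E14.5 and 17.8 to 18.47 for livers of E18.5, and the regions of the 9 genes had at least 14 reads per CpG in every library. Over all autosomal CpGs methylation was 70.6% and 72.0% in wild-type and 73.2% and 73.9% in Rlf mutant embryos. In E14.5 liver it was 56.4% and 58.5% in wild type against 60.3% and 59.2% in the Rlf mutant. The Rlf mutant libraries thus lay above the wild-type ones in both tissues. The part of this in the calls of single regions was not tested. In E18.5 liver 3 libraries were at 61.4% to 61.7% and Rlf mutant replicate 1 was at 65.5%. Leaving that library out lost the Rif1 call, as given above.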

How the data were processed

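Whole-genome bisulphite sequencing of 12 samples and RNA-seq of 6 E14.5 livers were used. H3K4me1 ChIP-seq was not analysed here. For bisulphite data the authors aligned reads with Bismark and Bowtie2 to mm9 with FVB substitutions, removed duplicates and merged strands, and deposited counts of methylated and unmethylated reads per CpG. For RNA, the authors deposited whole-number counts of reads per Ensembl gene, made with TopHat and HTSeq without using strand, so that a gene and an antisense partner cannot be told apart. Groups came from the labels, and replicates are separate embryos or livers.

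CpGs covered by 6 or more reads in every one of the 12 libraries were summed over each region (at least 5 CpGs), and methylation is the percent of methylated reads. Genes, TSS and islands were taken from GENCODE vM1 and the NCBIM37 (mm9) sequence. The TSS is the one used by most coding transcripts. Islands are runs of at least 200 bp with at least 50% GC and an observed to expected CpG ratio over 0.6. edgeR 4.0.16 was fitted to the counts of both states, with an intercept for each library and a mean for each of the 6 groups, over all regions of a kind or all 1 kb tiles with at least 8 CpGs. The genotype value is the mean of the 3 within-tissue contrasts. For RNA, edgeR's quasi-likelihood test with TMM normalization and its default filter kept 14183 genes, and DESeq2 1.42.0 was an alternative. P-values were adjusted by Benjamini-Hochberg over all features of a kind and called under 0.05. Errors of methylation differences come from the pooled SD within groups. Exact permutations exchanged genotype within tissue (216 arrangements). Both fits were tested on simulated data.

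The 9 genes, the partner and marker lists and the rule for named genes were chosen with earlier results of these data known. Named are the 9 genes and Rlf, called genes of each list (at most 4), the nearest gene by pattern for each of the 9, and tiles of their loci. Tiles, Fzd9, Rasal3, Gm4349, Gm17561, Gm10093, Smarca5-ps and the printed stretches that no call named were singled out with their values known. Alternatives were the coverage minimum, averaging, window, shore definition, tool, normalization, filter, sex, replicate number as a block, leaving out each library and, added after seeing the data, leaving out the Setdb1 CpGs inside a block with an inverted copy and averaging CpG percents for the tissue differences.

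In RNA-seq, livers sharing a replicate number showed correlated deviations (r = 0.125, 0.226 and 0.409). The main RNA fit did not pair the livers, and the replicate number was used as a block only in an alternative. Replicate number also went with sex, so these correlations cannot tell whether the livers were paired. In bisulphite data, libraries sharing a number did not show such correlations (r = 0.0465, 0.00738 and -0.0135). No 2 libraries of a group agreed within sampling noise.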

Additional observations from a re-analysis of the deposited data

How the results depend on the processing

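The RNA result, 0 of the 9 modifiers called, was the same under every alternative run, the replicate block included, which raised the calls over all genes from 197 to 460 and changed no call among the 9 genes or their partners. Without any 1 of the livers the partner lists held 0 called genes, against 1 with all livers. In bisulphite data the deviations of libraries sharing a replicate number had correlations near 0, which does not settle whether they were paired. There the replicate block kept the Setdb1 and Rif1 calls, and called 1 downstream shore in E14.5 liver alone where the fit without it called 0. It lowered the gene bodies called over all genes from 2077 to 709.

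With 500 bp to either side of the TSS, 0 TSS windows were called by genotype in place of 1, and 2 in place of 8 between E10.5 embryo and E14.5 liver. The 8 CpGs of Setdb1 lie outside that window. Without the duplicated Setdb1 block, chosen after seeing the data, 0 TSS windows and 1 downstream shore were called by genotype. With at least 10 reads per CpG, 0 upstream shores in place of 1 (Trim28), and 1 downstream shore in place of 0, were called between E14.5 and E18.5 liver, and 1 downstream shore was called by genotype in E14.5 liver. With shores of unmethylated stretches, found at 8 of the 9 genes, 2 upstream shores were called between E14.5 and E18.5 liver and 1 downstream shore by genotype in E14.5 liver. The cause was not tested.

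Leaving out each library in turn gave 1 to 2 downstream shores called by genotype, 0 to 1 TSS windows, 0 to 4 gene bodies and 0 to 1 tiles, and 0 to 2 tiles in E10.5 embryo alone. With a minimum difference of 15 points 0 tiles in place of 2 were called in the embryo. Single tissues gave 0 to 1 downstream shores in E10.5 embryo, 0 to 2 in E14.5 liver and 0 to 4 gene bodies in E18.5 liver. Between E14.5 and E18.5 liver there were 0 to 1 TSS windows and 0 to 1 downstream shores. The 4 bodies appeared without E18.5 Rlf mutant replicate 2. A fit that leaves out a library has 1 library left in that group, and its spread then comes from the other groups alone. Without E18.5 Rlf mutant replicate 2, the one left is the library that stands apart over the genome. No called genotype difference changed sign. Averaging CpG percents in place of pooling reads, run for the differences between tissues after seeing the data, turned the sign of 1 of 30 called differences between E10.5 embryo and E14.5 liver and 1 of 6 between the liver stages, both at the Trim28 upstream shore (-0.27 and 0.42 points). The depth behind a single CpG of the printed stretches was as low as 8 reads in a library.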

Other observations

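Upstream of Wiz, inside the neighbouring gene Rasal3, a pair of CpG-dense tiles were far more methylated in liver than in the embryo. The tile of 73 CpGs centred 7117 bp before the Wiz TSS held 14.8% ± 1.55 in wild-type E10.5 embryos, 59.6% ± 2.61 in wild-type E14.5 livers and 64.4% ± 5.78 in wild-type E18.5 livers (SD, n = 2). The tile of 39 CpGs centred 3117 bp before it held 12.5% ± 4.44, 41.5% ± 4.28 and 50.8% ± 3.91. These tiles were singled out with their values known, and no test between tissues was run on tiles.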
